A study of Rattus norvegicus with 18 samples.

Results

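Transcripts of heart muscle were read in the RNA-seq data of rat lungs, and 10 such genes were followed rat by rat. The genes were *Myl4*, *Myl7*, and *Nppa*, which are used mainly by the atria, *Myl2* and *Myl3*, which are used mainly by the ventricles, and *Myh6*, *Actc1*, *Tnnt2*, *Tnni3*, and *Ryr2*, which heart muscle uses in general. They were taken by symbol from the 22081 genes of each deposited table, and all 10 were found. They were chosen with earlier results of the comparison of treated and control lungs known. Their levels and their differences between treatments are thus a description, and no p is given for them. The tissue came from male F344 rats that received the multiwalled carbon nanotube MWNT-7 (MWCNT) at 0.5 mg/kg into the trachea every 4 weeks from 9 weeks of age, or the vehicle, saline with Tween 80, on the same schedule. Each of the 6 groups, control and MWCNT-treated at Years 0.5, 1, and 2, held 3 rats, and the 18 rats were separate animals. The RNA was made from a small piece of the accessory lobe, and tissue with nodules visible by eye had been left out. Total counts per rat ranged from 13297643 to 21130757.

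Heart muscle contracts through thick filaments of myosin and thin filaments of actin, and calcium released inside the cell starts each beat by binding the troponin complex on the thin filament. In rodents, muscle of this kind does not end at the heart. It extends as a sleeve around the pulmonary veins into the lung, and this sleeve resembles the muscle of the left atrium, so that atrial gene products can be read in lung tissue.

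The labelled tissue was checked first. The summed TPM (a level scaled for gene length and library total) of 5 genes of lung epithelium was 46899 to 68299 in the control rats and 61254 to 73358 in the MWCNT-treated rats. The summed TPM of the 10 heart muscle genes was 75.1 to 808 in the control rats and 16.4 to 239 in the MWCNT-treated rats, so that these genes made up a small and very uneven part of the tissue RNA. In 2 rats some of these genes, *Myl7*, *Myl2*, and *Myh6* among them, were nearly absent, whereas others such as *Actc1* were still read. Control rat 1 of Year 2 and MWCNT-treated rat 1 of Year 1 had 1 count of *Myl7* each, whereas the other 16 rats had 118 or more. The library name of this control rat ends in another letter than those of the other rats, and the labels do not say what the letter means. Several results that rest on these rats are given with and without them. Some fold changes, the summed ratios, the spread within groups, and the genes of like pattern are given only with them.

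*Myl7* (ENSRNOG00000014409, chromosome 14, 86143862 to 86147553 in Rnor_6.0) encodes the atrial regulatory light chain of myosin. The control rats had 571, 321, and 1289 counts at Year 0.5, 297, 911, and 912 at Year 1, and 1, 472, and 1480 at Year 2. The MWCNT-treated rats had 205, 229, and 257 counts at Year 0.5, 1, 603, and 362 at Year 1, and 131, 209, and 118 at Year 2. The groups were apart at Year 0.5, where the highest treated rat was below the lowest control rat, and they overlapped at Years 1 and 2. At Years 0.5, 1, and 2, control lungs had a mean of 46.7 ± 33.1, 43.3 ± 20.1, and 45.1 ± 54.0 TPM, and treated lungs 12.6 ± 2.62, 17.3 ± 15.6, and 8.71 ± 2.27 TPM (SD, n = 3 throughout).

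*Myl4* (ENSRNOG00000050675, chromosome 10, 92628356 to 92638100) encodes the atrial essential light chain, which sits beside the regulatory chain on the neck of the myosin head. The control rats had 239, 154, and 618 counts at Year 0.5, 170, 469, and 429 at Year 1, and 10, 243, and 731 at Year 2. The MWCNT-treated rats had 114, 105, and 142 counts at Year 0.5, 4, 269, and 178 at Year 1, and 68, 144, and 57 at Year 2. As with *Myl7*, the groups did not overlap at Year 0.5 and overlapped later.

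*Nppa* (ENSRNOG00000008176, chromosome 5, 164808323 to 164809705), which encodes the atrial natriuretic peptide secreted by atrial muscle, was close to absent. It had 4 counts in control rat 3 of Year 0.5, 1 count in each MWCNT-treated rat of Year 2, and 0 counts in the remaining 14 rats. A count of 0 allows up to 3 counts per library, so that no fold was calculated for *Nppa* at this depth.

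*Myl2* (ENSRNOG00000030848, chromosome 12, 39951987 to 39958239) encodes the ventricular regulatory light chain, the counterpart of *Myl7*. The control rats had 26, 15, and 54 counts at Year 0.5, 15, 41, and 32 at Year 1, and 0, 20, and 53 at Year 2. The MWCNT-treated rats had 1, 1, and 4 counts at Year 0.5, 0, 1, and 4 at Year 1, and 1, 2, and 1 at Year 2. No MWCNT-treated rat exceeded 4 counts, and every control rat except the one nearly without *Myl7* had 15 or more.

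*Myl3* (ENSRNOG00000020955, chromosome 8, 119030875 to 119036996), the ventricular essential light chain, had 0 to 3 counts in every control rat and 0 to 5 counts in every MWCNT-treated rat, with sums of 10 and 13 counts over the 9 rats of each treatment. Against this stood 256 counts of *Myl2* in the control rats but only 15 in the MWCNT-treated rats, so that *Myl2* made up most ventricular counts in the control rats and little more than *Myl3* in the treated rats.

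*Myh6* (ENSRNOG00000025757, chromosome 15, 33605654 to 33629699) encodes the alpha heavy chain of myosin, which is used by rodent atria and by adult rodent ventricles. The control rats had 1555, 840, and 3781 counts at Year 0.5, 804, 3341, and 2807 at Year 1, and 0, 1054, and 3212 at Year 2. The MWCNT-treated rats had 725, 841, and 759 counts at Year 0.5, 3, 1120, and 991 at Year 1, and 359, 653, and 292 at Year 2. In counts the groups touched at Year 0.5, where 1 treated rat exceeded the lowest control rat by 1 count, and on the TPM scale they did not overlap, with 12.7 to 15.5 TPM in the treated and 20.1 to 84.8 TPM in the control rats. *Myh6* and its neighbour *Myh7* are near-identical in sequence, and how reads matching both were counted is not given in the sources used here, so that the split between them is uncertain.

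*Actc1* (ENSRNOG00000008536, chromosome 3, 105507403 to 105512939), cardiac alpha-actin of the thin filament, had the highest level of the 10 genes. The control rats had 1916, 912, and 3018 counts at Year 0.5, 964, 2305, and 2072 at Year 1, and 695, 1108, and 2733 at Year 2. The MWCNT-treated rats had 712, 727, and 586, then 124, 1215, and 758, then 271, 638, and 268 counts. It was the only one of the 10 genes whose treated rats all lay below the control rats at Year 2, and control rat 1 of Year 2, with 1 count of *Myl7*, still had 695. *Actc1* is close in sequence to the skeletal and smooth muscle actins *Acta1* and *Acta2*, so that its counts may include reads of these genes.

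The troponin subunits *Tnnt2* (ENSRNOG00000033734, chromosome 13, 52662996 to 52680990), which anchors the complex to tropomyosin, and *Tnni3* (ENSRNOG00000018250, chromosome 1, 72882806 to 72886488), which holds contraction off until calcium arrives, moved alike over the rats. *Tnnt2* had 307, 167, and 701, then 208, 570, and 473, then 39, 264, and 739 counts in the control rats of Years 0.5, 1, and 2, and 132, 140, and 174, then 39, 377, and 223, then 127, 217, and 122 in the MWCNT-treated rats. *Tnni3* had 302, 160, and 661, then 146, 503, and 459, then 30, 219, and 617 counts in the control rats, and 83, 114, and 124, then 10, 263, and 129, then 59, 104, and 53 in the MWCNT-treated rats. *Tnni3* is specific to heart muscle among the troponin I genes of the adult, and its counts separated the treatments at Year 0.5 only.

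*Ryr2* (ENSRNOG00000017060, chromosome 17, 65535403 to 65955606), the channel through which heart muscle releases stored calcium, is also used outside muscle, for example in neurons. It had 173, 86, and 390, then 111, 378, and 302, then 43, 74, and 379 counts in the control rats, and 119, 114, and 110, then 18, 119, and 89, then 62, 111, and 47 in the MWCNT-treated rats. On the TPM scale its groups were apart at Year 1 only, with 0.147 to 0.840 TPM in the treated and 1.08 to 3.42 TPM in the control rats.

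**Figure D1:**
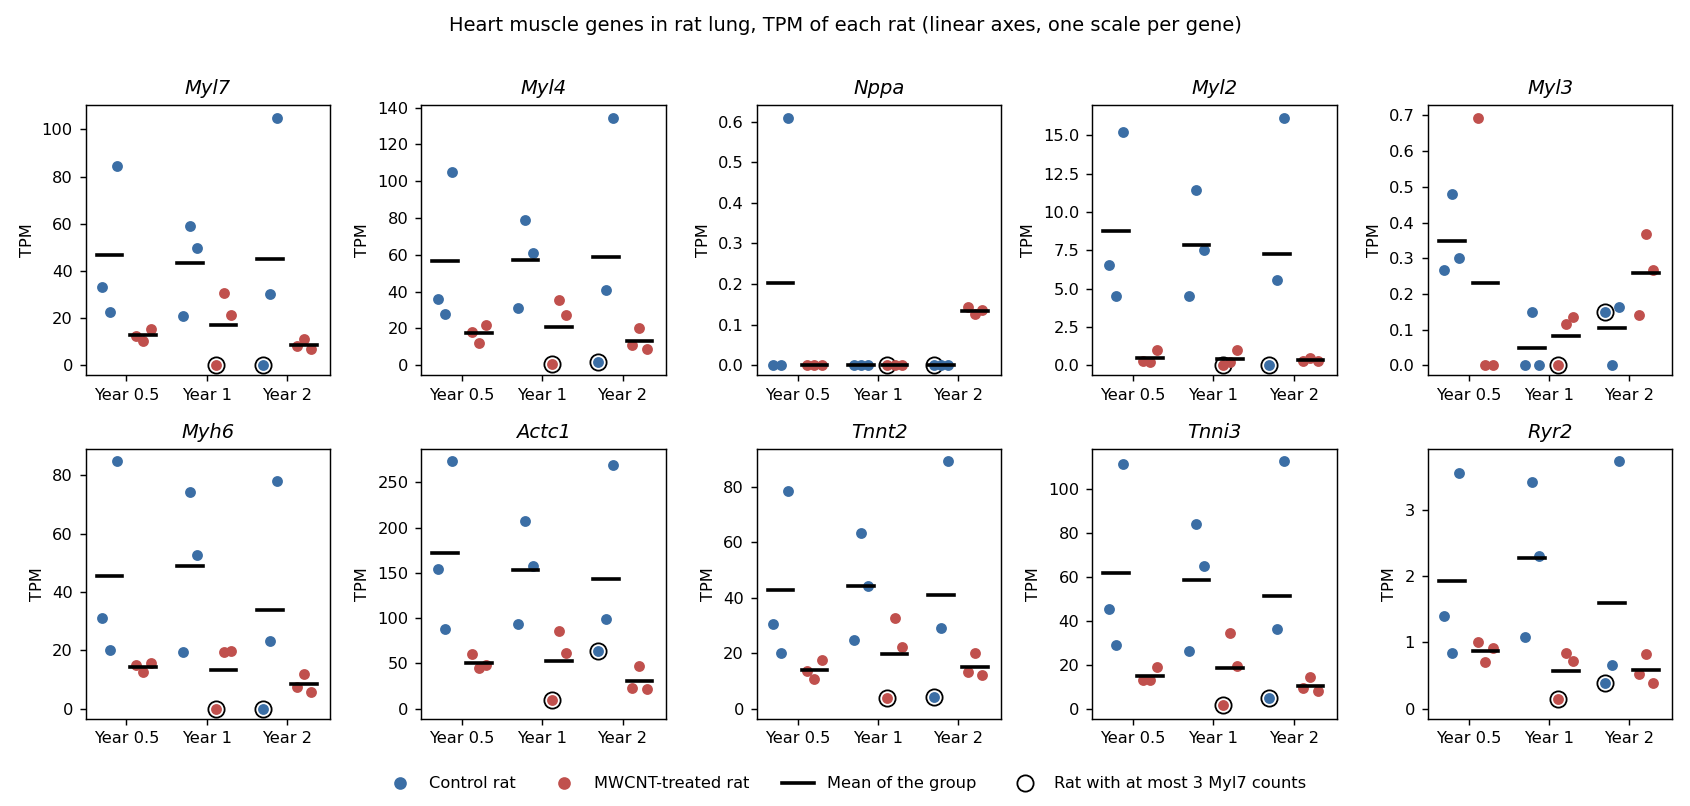
TPM of each of the 10 genes in each rat, with 1 panel and 1 linear scale per gene. Blue points are control rats, red points MWCNT-treated rats, black lines the mean of the 3 rats of a group, and open circles mark the 2 rats with 1 count of *Myl7*. The mean of the control rats stays between 43.3 and 46.7 TPM for *Myl7* at all time points, and *Myl2* stays at or below 1.03 TPM in every treated rat.

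Levels were compared between genes per length, relative to *Myl7* in the same rat, in the 8 control rats with more than 1 count of *Myl7*. Per 100 TPM of *Myl7*, *Actc1* had a median of 338 TPM (range 256 to 465), above every other gene in every rat. *Tnni3* (129, range 107 to 142) and *Myl4* (126, range 109 to 149) could not be ordered, nor could *Myh6* (93.0, range 74.3 to 126) and *Tnnt2* (92.3, range 85.2 to 120). *Myl2* followed at 18.8 (range 15.1 to 21.7) and *Ryr2* at 4.22 (range 2.18 to 5.78), each apart from its neighbours in the order. The coefficient of variation of the level relative to *Myl7* over these rats was 8.30% for *Tnni3*, 8.96% for *Myl4*, 11.9% for *Tnnt2*, 12.4% for *Myl2*, 17.3% for *Myh6*, 19.8% for *Actc1*, and 26.1% for *Ryr2*.

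The spread of levels between rats of the same group was large. Over the 8 genes that passed the filter on low counts in the model of all rats, the median coefficient of variation of the CPM (counts scaled to the library total times its TMM factor) was 71.1%, 44.1%, and 114% in the control rats of Years 0.5, 1, and 2 and 20.8%, 87.1%, and 36.2% in the MWCNT-treated rats. Over all tested genes it was 8.27% to 10.4%. The largest values were those of the groups that hold the 2 rats nearly without *Myl7*.

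The promoters of genes that moved together over the rats are shown for 4 genes and for *Myl3*, which was near 0. The sequences are the 120 bases upstream of the RefSeq start in the GRCr8 assembly, written 5′ to 3′ on the strand of the gene, and 9 of the 10 genes had an entry. *Tnnt2* had 2 entries, and the one at the start of the gene was used. The 250 bases upstream of each start were searched on both strands for the MCAT element, which is spelled CATTCC. The GATA site was searched as AGATAA in the same way. The NKX site was read as TNAAGTG on both strands too. The E box is CANNTG, and it was searched with the MEF2 site and the CArG box on both strands. The TATA box was searched only on the strand of the gene, as TATAAA. Capitals mark the matches except those of the E box.
Myl7 chr14:84996625-84996744 (minus strand): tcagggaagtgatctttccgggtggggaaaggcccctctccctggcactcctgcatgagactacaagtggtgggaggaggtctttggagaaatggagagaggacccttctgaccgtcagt
Myl4 chr10:89976030-89976149 (plus strand): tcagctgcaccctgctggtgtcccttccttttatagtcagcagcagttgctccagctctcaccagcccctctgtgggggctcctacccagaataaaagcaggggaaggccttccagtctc
Myh6 chr15:32411698-32411817 (minus strand): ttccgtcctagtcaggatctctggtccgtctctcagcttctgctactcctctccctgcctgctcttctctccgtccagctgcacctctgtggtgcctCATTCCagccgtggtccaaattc
Tnnt2 chr13:49819003-49819122 (plus strand): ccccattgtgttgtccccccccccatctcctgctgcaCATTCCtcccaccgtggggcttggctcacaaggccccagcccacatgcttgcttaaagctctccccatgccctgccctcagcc
Myl3 chr8:119616974-119617093 (plus strand): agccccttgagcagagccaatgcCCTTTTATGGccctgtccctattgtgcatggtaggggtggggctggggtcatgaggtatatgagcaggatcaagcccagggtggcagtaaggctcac

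CATTCC was found in 3 of the 9 promoters, those of *Myl3*, *Myh6*, and *Tnnt2*, and in 12.1% of the 33469 promoters searched. AGATAA was found in 2, those of *Tnnt2* and *Tnni3*, and in 10.3% of all promoters, and the CArG box only in that of *Myl3* among the 9, and in 1.50% of all. TATAAA was found in that of *Nppa* (8.06% of all), and the MEF2 site and TNAAGTG in 0 of the 9 (2.96% and 9.89% of all). The E box was found in 7 of the 9 and in 65.5% of all promoters. The atrial genes *Myl4* and *Myl7* held the E box alone in the 250 bases.

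MWCNT-treated rats were compared with control rats at each time point to ask whether the exposure goes with a change in these genes. At Year 0.5, the log2 fold change was -1.75 (standard error 0.43) for *Myl7*, -1.57 (0.46) for *Myl4*, -1.51 (0.44) for *Myh6*, -1.62 (0.34) for *Actc1*, -1.48 (0.45) for *Tnnt2*, -1.90 (0.44) for *Tnni3*, and -1.01 (0.45) for *Ryr2*. These values ran from -1.01 to -1.90, and that of *Myl2* was -4.00 (0.71). Summed over the 3 rats of each group and scaled to the total counts, *Myl2* was 18.4 times higher in the control rats (95% exact interval 8.15 to 51.4), against 3.67 times for *Myl7* (3.37 to 4.00). These intervals cover counting error only. In bulk tissue, fewer heart muscle cells in the piece and less of this RNA per cell cannot be told apart.

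At Year 1, the log2 fold change was -1.05 (standard error 0.84) for *Myl7*, -1.16 (0.73) for *Myl4*, -1.62 (0.92) for *Myh6*, -1.27 (0.58) for *Actc1*, -0.90 (0.57) for *Tnnt2*, -1.38 (0.70) for *Tnni3*, and -1.72 (0.54) for *Ryr2*. The larger standard errors came with MWCNT-treated rat 1, and without it the value was -0.47 (standard error 0.37) for *Myl7* and -0.79 (0.30) for *Actc1*. *Myl2* had -3.96 (0.71), and -3.42 (0.69) without that rat. It summed to 88 counts in the control rats and 5 in the MWCNT-treated rats, 18.4 times higher per total count in the control rats (7.58 to 58.0), and *Myl7* was 2.29 times higher (2.12 to 2.47).

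At Year 2, the log2 fold change was -2.12 (standard error 1.06) for *Myl7*, -1.91 (0.95) for *Myl4*, -1.75 (1.08) for *Myh6*, -1.99 (0.50) for *Actc1*, -1.19 (0.74) for *Tnnt2*, -2.03 (0.80) for *Tnni3*, and -1.22 (0.72) for *Ryr2*. Control rat 1 decided the errors of this comparison. Without it, the value was -2.71 (0.47) for *Myl7*, -2.48 (0.51) for *Myl4*, -2.33 (0.48) for *Myh6*, -1.72 (0.43) for *Tnnt2*, and -2.57 (0.46) for *Tnni3*. Other omissions weakened the fall. Over all fits that lacked 1 rat, the highest value was -0.57 for *Myl7*, -0.45 for *Myl4*, and -0.22 for *Myh6*. For *Tnnt2* it was 0.082, and for *Tnni3* -0.74. The size of the fall at Year 2 thus depended on single rats. *Myl2* was too low at Year 2 to be tested, and its sums of 73 and 4 counts gave a ratio of 20.6 (7.70 to 77.5), against 4.81 for *Myl7* (4.34 to 5.33).

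**Figure D2:**
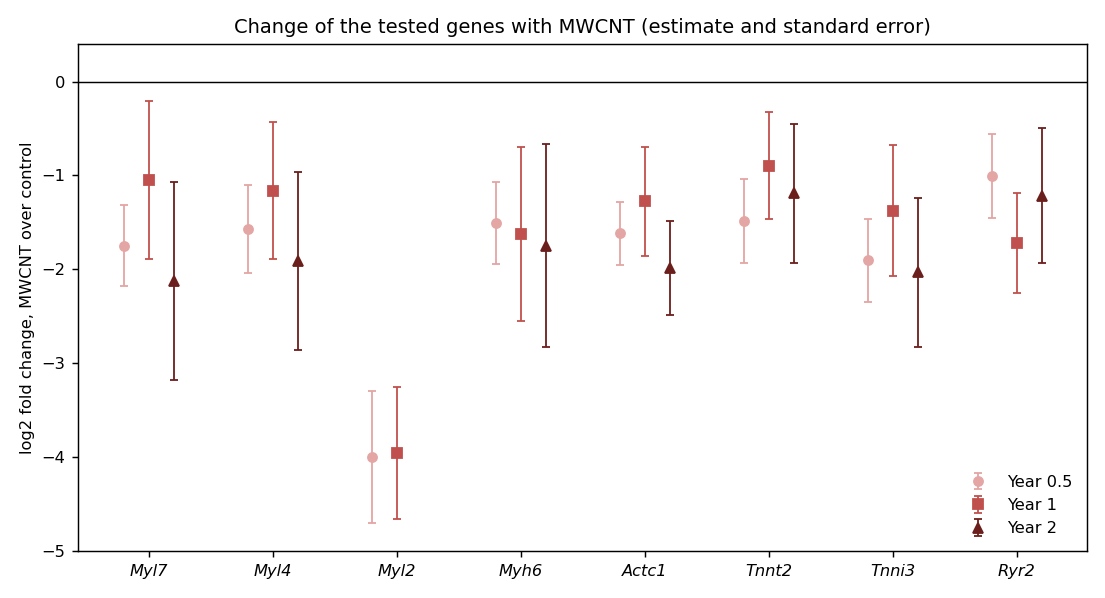
Log2 fold change of MWCNT-treated over control rats at each time point (edgeR estimate, bars are the standard error, 3 against 3 rats) for the 8 genes tested. *Myl2* lies near -4 at Years 0.5 and 1 and was not tested at Year 2, and the other genes lie between -0.90 and -2.12.

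Genes were called by the criterion of the study, a change of more than 1 on the log2 scale at an FDR under 0.05. By it, 7 of 8 tested genes were called lower at Year 0.5 (all but *Ryr2*), where 3.03% of all 14315 tested genes were. At Year 1, 2 of 8 were called lower (*Myl2* and *Ryr2*, against 4.09% of all genes), and at Year 2, 1 of 7 (*Actc1*, against 8.22%). None was called higher. *Myl3* and *Nppa* did not pass the filter at any time point. Nothing is read from these counts, because the genes were chosen on this comparison. The CPM of every treated rat was below that of every control rat for 7, 2, and 1 of the tested genes at Years 0.5, 1, and 2, and for 25.5%, 26.9%, and 28.9% of all genes. The number called at Year 0.5 was 4 without control rat 3, 4 without MWCNT-treated rat 1, and 4 without MWCNT-treated rat 2. At Year 1 it was 1 without control rat 2, 1 without control rat 3, and 1 without MWCNT-treated rat 3, and at Year 2 it was 7 without control rat 1.

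The ratio of atrial to ventricular transcripts was then compared rat by rat, as the summed TPM of *Myl4*, *Myl7*, and *Nppa* over that of *Myl2* and *Myl3*. In the control rats the ventricular sum was mostly *Myl2*. *Myl3*, which was close to absent, had a median of 0.203 TPM per 100 TPM of *Myl7* in 8 control rats. In 8 treated rats this median was 1.19, and the treatments overlapped. The ratio thus does not show a fall of ventricular genes as a class. It was 10.2, 10.1, and 12.3 in the control rats of Year 0.5, 11.4, 11.9, and 14.7 in those of Year 1, and 11.8, 12.8, and 14.7 in those of Year 2, where the first value rests on 1 ventricular count. Treated rats had ratios of 31.8, 117, and 36.4 at Year 0.5, 198 and 42.3 in rats 2 and 3 of Year 1, and 47.0, 37.8, and 30.2 at Year 2. MWCNT-treated rat 1 of Year 1 had 0 ventricular counts and no ratio. The ratios of the other treated rats rest on 1 to 6 ventricular counts, that of 117 on 1 and that of 198 on 2, so that their size is uncertain. The control rats stayed within a narrow band at every time point, and all 8 treated rats with a ratio lay above all 9 control rats. The genes were chosen with this pattern known, so the separation is a description.

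The contrast was also described without the other genes, as the share of *Myl2* among the counts of both regulatory light chains, a measure chosen after the values were seen. It reuses the same counts of *Myl2* and *Myl7* and adds no independent support. The 2 rats with 1 count of *Myl7* allow no share. In the control rats the share was 4.36% (95% exact interval 2.86 to 6.32), 4.46% (2.52 to 7.26), and 4.02% (3.03 to 5.21) at Year 0.5, 4.81% (2.72 to 7.81), 4.31% (3.11 to 5.80), and 3.39% (2.33 to 4.75) at Year 1, and 4.07% (2.50 to 6.21) and 3.46% (2.60 to 4.50) in rats 2 and 3 of Year 2. Treated rats had a share of 0.485% (0.0123 to 2.67), 0.435% (0.0110 to 2.40), and 1.53% (0.419 to 3.88) at Year 0.5, 0.166% (0.00419 to 0.919) and 1.09% (0.299 to 2.77) in rats 2 and 3 of Year 1, and 0.758% (0.0192 to 4.15), 0.948% (0.115 to 3.38), and 0.840% (0.0213 to 4.59) at Year 2. The shares of the treatments did not overlap, but the counting intervals of single rats did, since each treated rat had at most 4 counts of *Myl2*.

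**Figure D3:**
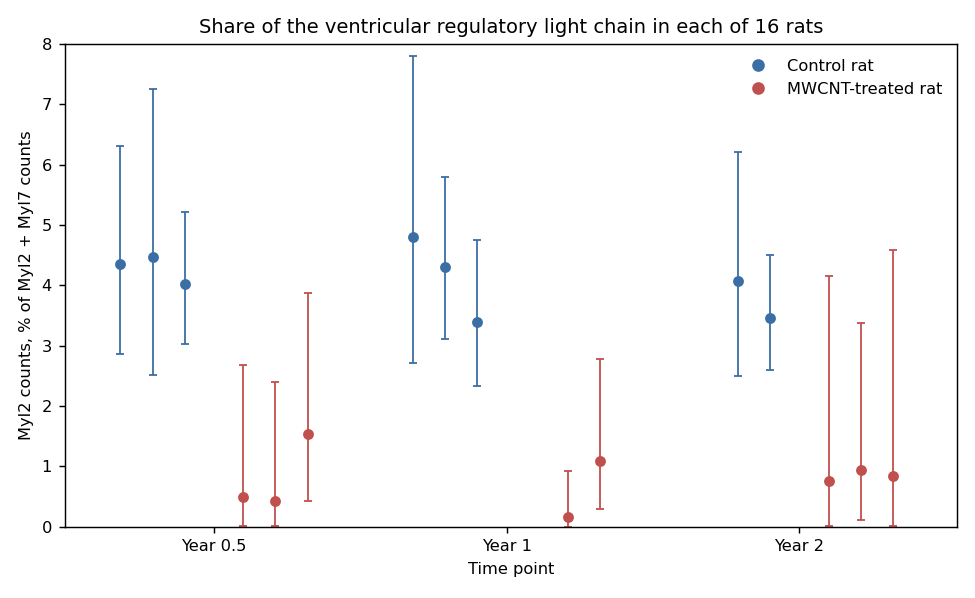
Counts of *Myl2* as a percentage of the counts of *Myl2* and *Myl7* in each of 16 rats, by time point, with 95% exact counting intervals. The 2 rats with 1 count of *Myl7* are left out. The 8 control rats lie between 3.39% and 4.81%, and the 8 MWCNT-treated rats between 0.166% and 1.53%.

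To see whether other heart muscle genes shifted against *Myl7* in the way *Myl2* did, the 56 genes of the lists that passed the filter were each divided by *Myl7* in the same rat, on the TPM scale, in the 8 control and 8 MWCNT-treated rats with more than 1 count of *Myl7*. This comparison too was added after the values were seen. *Myl2* fell from a median of 18.8 to 3.46 TPM per 100 TPM of *Myl7* (treated range 0.713 to 6.69), and it was the only gene of the 56 for which every treated rat was below every control rat. *Myl2* was chosen with its low counts in treated rats known, so its place among the 56 is a description. The share of all genes without overlap in their ratio to *Myl7* was not calculated. For *Cox6a2*, a muscle subunit of cytochrome c oxidase, every treated rat was above every control rat (80.4 to 222 against 53.1 to 71.8). *Bmp10*, one of 7 listed genes below the filter and with 1 to 11 counts per rat, did not overlap either (1.29 to 14.5 in treated against 0.273 to 0.989 in control rats). The treatments overlapped for the other 54 genes that passed the filter, *Myl4* (treated median 131 against 126), *Myh6* (97.5 against 93.0), *Tnni3* (116 against 129), *Actc1* (315 against 338), *Tnnt2* (113 against 92.3), and *Ryr2* (6.28 against 4.22) among them. *Myh7*, the beta myosin heavy chain, which is used by ventricles and slow muscle, also overlapped (1.62 against 1.87 TPM per 100 TPM of *Myl7*). The median over the 56 genes of the treated to control ratio was 1.17.

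**Figure D4:**
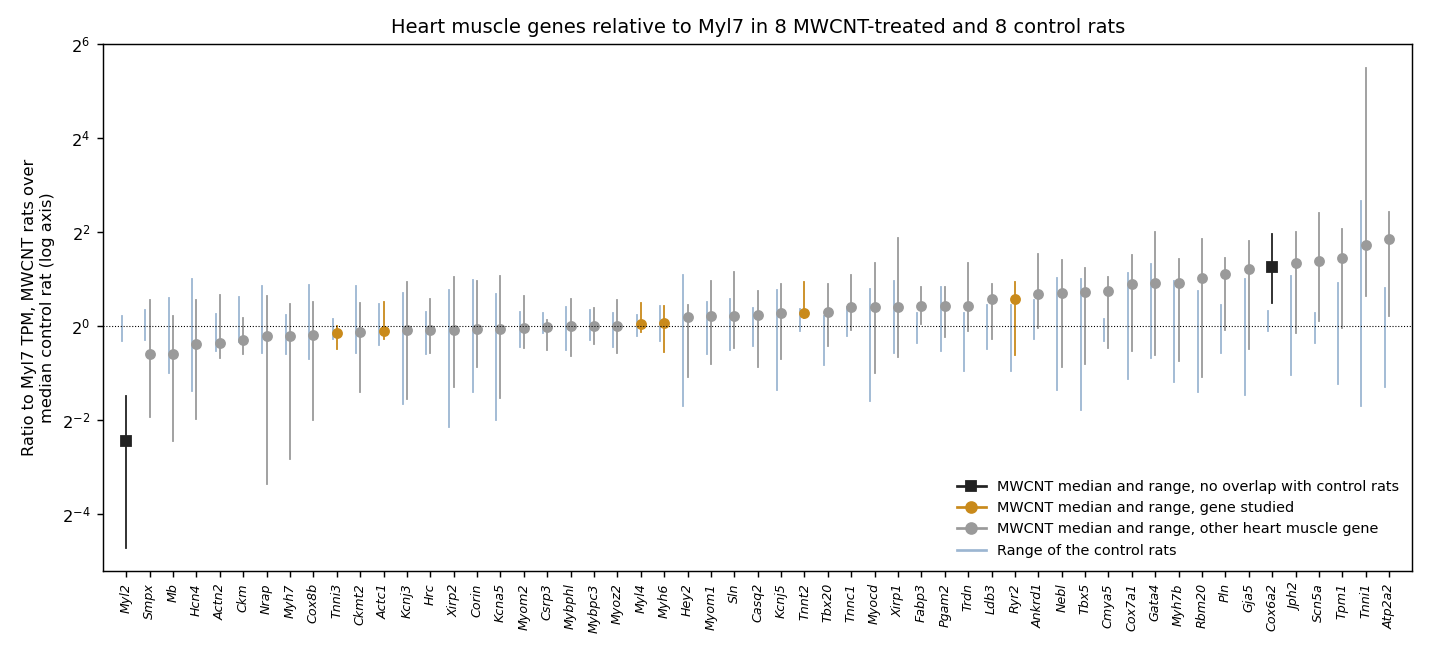
Level of 55 heart muscle genes relative to *Myl7* in the same rat, on a log axis, with the median control rat set to 1. Markers and lines give the median and range of 8 MWCNT-treated rats, blue lines the range of 8 control rats, and squares the genes without overlap. The median of *Myl2*, a gene chosen with its pattern known, lies at 0.184 and is the lowest of the genes drawn.

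The 2 rats nearly without *Myl7* were described gene by gene, as the CPM relative to the median of the other 8 rats of the treatment. Both had 0 counts of *Myl2*, and *Myh6* had 0 and 3 counts. *Tnni3* stood at 9.79% of that median in the control rat and 10.9% in the MWCNT-treated rat, *Tnnt2* at 12.4% and 24.9%, *Ryr2* at 22.5% and 18.6%, and *Actc1* at 43.0% and 21.0%. All 8 tested genes were below each of the other 8 rats of the treatment in both animals, as were 2652 and 1207 of all 14843 tested genes.

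Of the 57 heart muscle genes tested in the model of all rats, 16 were under 10% of the median in both rats, 17 were over 50% in both, and 24 lay between. The first class held *Myl2*, *Myl4*, *Myl7*, and *Myh6* together with *Myh7*, the Z disc genes *Csrp3* and *Myoz2*, the oxygen store *Mb*, the transcription factor *Tbx20*, and the atrial genes *Sln*, an inhibitor of the calcium pump, and *Mybphl*. The class over 50% held the calcium pump *Atp2a2*, the tropomyosin *Tpm1*, the transcription factors *Tbx5*, *Gata4*, *Hey2*, and *Myocd*, the gap junction gene *Gja5*, and the pacemaker channel *Hcn4*, several of which are known from vessels, airways, or fibroblasts too. *Tnni1*, the troponin I of slow and fetal muscle, had 54 counts in the control rat, more than in any other rat. Genes of smooth muscle, endothelium, and lung epithelium stood at medians of 112%, 89.5%, and 104% in the control rat and 77.0%, 127%, and 99.8% in the MWCNT-treated rat.

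**Figure D5:**
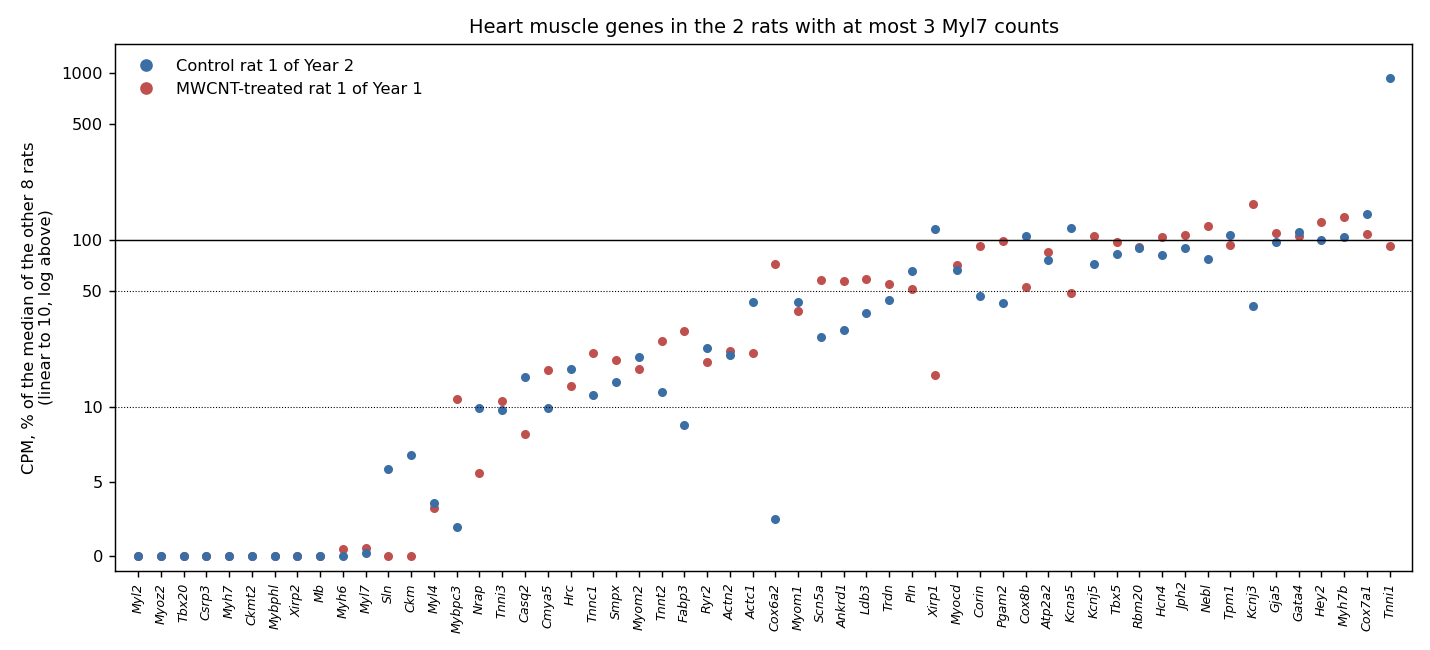
CPM of 56 heart muscle genes in the 2 rats with 1 count of *Myl7*, as a percentage of the median of the other 8 rats of the treatment (axis linear up to 10 and logarithmic above). Dotted lines mark 10% and 50%. *Myl2*, *Myl7*, and *Myh6* lie at or near 0 in both rats, whereas *Hcn4*, *Hey2*, and *Tbx5* lie between 82.0% and 129%.

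The comparison was extended to 56 other genes used by heart muscle, of which 54 were analysed and 48 passed the filter at 1 or more time points. This list was made with earlier results of these data known. The FDR values printed for its genes in the treatment comparisons are thus a description and not independent support. At Year 0.5, 20 of 47 tested genes were called lower, at Year 1, 11 of 47, and at Year 2, 18 of 46, and 0 were called higher at any time point. The shares of all tested genes called lower were 3.03%, 4.09%, and 8.22%. The median log2 fold change of the list was -1.11, -1.12, and -1.56, against -0.02, 0.00, and -0.01 for all tested genes, and that of the 10 genes described above was -1.59 (8 tested), -1.33 (8 tested), and -1.91 (7 tested). In all, 31 genes were called at 1 or more time points, 5 of them at all 3. Of the 31, 9 stood over 50% of the median in both rats nearly without *Myl7*, 8 under 10%, and 14 between. Many called genes thus did not follow *Myl7* in these 2 rats. The counts of called genes depended on single rats. The count at Year 0.5 was 6 without control rat 3, 9, 6, and 12 without MWCNT-treated rats 1, 2, and 3, and 28 at most with any rat left out. At Year 1 it was 17, 6, and 4 without control rats 1, 2, and 3 and 7 without MWCNT-treated rat 3. At Year 2 it was 38 without control rat 1, 10 without control rat 3, 10 without MWCNT-treated rat 1, and 9 without MWCNT-treated rat 3.

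Among genes of the filaments, the Z disc protein *Actn2*, which cross-links actin, was called at all time points, at -1.61 ± 0.42, -1.52 ± 0.53, and -1.997 ± 0.66 on the log2 scale (estimate ± standard error, edgeR FDR 0.0147, 0.0458, and 0.0325). *Myom1* and *Myom2*, proteins of the M line, fell at Years 1 and 2 (-1.57 and -1.52) and at Years 0.5 and 2 (-1.42 and -1.84). *Myh7* (-1.94), *Mybpc3*, a regulator of the thick filament (-1.64), and *Mybphl* (-1.31) were called at Year 0.5, and *Myh7b* (-1.11) at Year 2. Of the Z disc and sarcomere assembly genes, *Ldb3* was called at Years 0.5 and 2 (-1.09 and -1.33), *Smpx* at Years 0.5 and 1 (-1.88 and -1.79), *Myoz2* (-1.82) and *Csrp3* (-1.74) at Year 0.5, *Nrap* (-1.997) at Year 1, and *Xirp1* (-1.91) at Year 2. *Tnnc1*, the calcium-binding troponin subunit, had -1.51, -0.96, and -1.62 and was not called.

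Among genes of calcium handling and energy, *Casq2*, which stores calcium (-1.82), and *Hrc* (-1.52) were called at Year 0.5. *Pln*, the other inhibitor of the calcium pump, had -0.79, -0.55, and -0.88, and *Sln* had -1.18, -1.49, and -1.92, neither of them called. *Cox8b*, a muscle subunit of cytochrome c oxidase that is also used by brown fat, was called at all time points (-1.49, -1.39, and -3.34). The creatine kinases *Ckm* (-2.13) and *Ckmt2* (-1.73) and the fatty acid carrier *Fabp3* (-1.56) were called at Year 0.5, and *Mb* (-3.36), *Pgam2* of glycolysis (-1.56), and *Cox7a1* (-1.54) at Year 2.

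Among regulators and channels, *Hcn4* was called at all time points and had tight groups, with 2.40, 1.93, and 3.16, then 2.33, 2.38, and 2.37, then 1.82, 1.97, and 2.26 TPM in the control rats and 0.261 to 1.02 TPM in the 9 MWCNT-treated rats. It changed by -1.61 ± 0.29, -1.72 ± 0.23, and -2.17 ± 0.31 on the log2 scale (edgeR FDR 0.00259, 0.00059, and 0.000379). *Kcnj3*, a channel subunit of atrial muscle (-1.10, -1.12, and -1.67), and *Corin*, the protease that activates the atrial peptide (-1.05, -1.43, and -1.56), were called at all time points as well. *Kcnj5*, which pairs with *Kcnj3*, was called at Years 0.5 and 2 (-1.16 and -1.30), and *Kcna5*, an atrial potassium channel, at Years 1 and 2 (-1.47 and -1.68). *Myocd*, a coactivator in heart and smooth muscle, was called at Years 1 and 2 (-1.23 and -1.25), *Rbm20*, a splicing factor, at Year 1 (-1.01), and *Gata4* at Year 2 (-1.55).

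Of 6 tested further atrial genes, 3, 2, and 3 were called lower at Years 0.5, 1, and 2, against 3.03%, 4.09%, and 8.22% of all tested genes. For the further ventricular genes it was 2 of 2, 0 of 2, and 1 of 1. Among the atrial genes, *Gja5*, which arterial endothelium also uses, fell by 0.38, 0.33, and 0.42 on the log2 scale, under the limit on the fold change. *Bmp10*, a secreted factor of the atrium, had 1 to 7 counts in the control rats and 3 to 11 in the MWCNT-treated rats. Of the further ventricular genes, *Hey2*, a repressor of atrial genes in the ventricle that vessels use too, was called at Years 0.5 and 2 (-1.32 and -1.84, edgeR FDR 0.00109 and 3.07e-05) and had -0.94 at Year 1. *Nppb*, the B-type natriuretic peptide, had 0 counts in each of the 9 control rats and in the MWCNT-treated rats of Year 0.5, 3, 1, and 1 counts at Year 1, and 1, 5, and 18 counts at Year 2, and *Irx4* had at most 2 counts in any rat. *Hey2* stood at 101% of the median in the control rat nearly without *Myl7* and at 129% in the MWCNT-treated one.

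Genes of other cell types were read beside these values by the same criterion, which also needs a log2 change above 1 in size. The shares of all tested genes called lower were 3.03%, 4.09%, and 8.22%. The summed levels of smooth muscle and of endothelium were lower in every treated rat than in every control rat. Of 12 smooth muscle genes, 2, 4, and 3 were called lower and 0 higher at Years 0.5, 1, and 2, with medians of -0.70, -0.83, and -0.89, and their summed level was 1434 to 2244 TPM in the control rats and 731 to 1109 TPM in the MWCNT-treated rats, led by *Tagln*, *Acta2*, and *Myl9*. Of 5 endothelial genes, 1, 0, and 3 were called lower, with medians of -0.82, -0.73, and -1.07 and sums of 1839 to 2419 and 614 to 1358 TPM, led by *Cldn5*, *Cdh5*, and *Vwf*. Of 8 macrophage genes, 5, 4, and 7 were called higher and 0, 1, and 0 lower, with sums of 624 to 949 TPM in the control rats and 3089.6 to 5842 TPM in the MWCNT-treated rats, led by *Gpnmb*, *Lpl*, and *Cd68*. The share of all tested genes called higher was not set beside the macrophage counts, and nothing is read from them. The part of smooth muscle, endothelium, and macrophages in the values of the heart muscle genes was not tested. In the 2 rats nearly without *Myl7*, each smooth muscle gene was at 70.9% or more of the median in the control rat and at 37.5% or more in the MWCNT-treated rat.

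The time course within each treatment was tested in one model of all 18 rats, which is not the comparison the genes were chosen on. Of 8 tested genes, 0 changed between any 2 time points in the control rats or in the MWCNT-treated rats by edgeR, 0 had an unadjusted p below 0.05 in any of these 6 contrasts, and DESeq2 called 0 as well. The lowest FDR was 0.689 in the control rats and 0.537 in the MWCNT-treated rats, and the standard errors were 0.57 to 1.03 and 0.60 to 1.68 on the log2 scale, so that a moderate change with time was not detectable. Of all 14843 genes, 0%, 0.633%, and 0.499% were called in the control rats for Year 1 against 0.5, Year 2 against 0.5, and Year 2 against 1, and 0.0472%, 2.34%, and 0.903% in the MWCNT-treated rats. A difference of the treatment effect between time points was found for 0 of the 8 genes by edgeR or DESeq2 (lowest FDR 0.730 by edgeR, 0 with an unadjusted p below 0.05, standard errors 0.83 to 2.64), against 0%, 1.31%, and 0.478% of all genes. These counts were 0 also without the 2 rats nearly without *Myl7*. A call at one time point and not at another is thus not shown to be a difference between them.

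The genes whose pattern was most like that of *Myl7* over the log2 CPM of the 18 rats were, out of 14842, *Csrp3* (Pearson r = 0.99), *Myh6*, *Myl4*, *Myoz2*, *Mybphl*, *Mybpc3*, *Tbx20*, *Mb*, *Eef1a2*, and *Cmya5* (r = 0.94), and 9 of these 10 were on the heart muscle lists. The 10 most like *Myl2* included *Ldb3* (r = 0.92), *Tshz2*, *Ppp2r3a*, *Hhatl*, *Pkd2*, *Actn2*, *Smpx*, *Mctp1*, and *Myom1* (r = 0.88), and 4 of these 10 were on the lists. The rats share the treatment contrast and the 2 rats nearly without *Myl7*, both of which enter these values, and no p is given for them. Within the 9 control rats, the 7 correlations of *Myl2* with the other tested genes had a median of 0.98, and within the 9 MWCNT-treated rats, where *Myl2* had 0 to 4 counts, a median of 0.60. Without the rats nearly lacking *Myl7*, these medians were 0.98 in 8 control rats and 0.30 in 8 MWCNT-treated rats. For the 21 pairs without *Myl2* the medians were 0.93 and 0.94, and 0.96 and 0.88 without those rats.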

How the data were processed

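Lung RNA of 18 rats had been sequenced. The authors mapped the reads with CLC Genomics Workbench and deposited raw counts for each gene and the TPM, which the authors' software scaled for gene length and library total. The submitters' processing notes name Rnor_6.0 and rn6. The annotation version and the rule for reads matching several genes are not given in the sources used here. The deposited RPKM and TMM-adjusted CPM columns (36) and the authors' fold changes and p-values were not used.

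Counts were tested in R 4.3.3 with edgeR 4.0.16 (filterByExpr, min.count 10, min.total.count 15, TMM factors, quasi-likelihood test, Benjamini-Hochberg adjustment over all tested genes), within each time point for treatment and in one model of 18 rats for time and the interaction. Genes were called when the log2 change exceeded 1 in size at an FDR under 0.05, and interactions at the FDR alone. Standard errors were derived from the fold change and the F statistic. Alternatives were DESeq2 1.42.0, limma 3.58.1 on log2(TPM + 1), other filters and scalings, one model of 18 rats, a replicate block, and each rat left out. The fits were tested on simulated counts with known changes. The simulation set the same spread between rats for all genes, below that of the heart muscle genes in control rats. Nothing is read from it for these genes. CPM was calculated from the counts with TMM factors, and log2 CPM for correlations used a prior count of 2. Intervals are 95% Clopper-Pearson intervals (Python 3.11.15) and cover counting error only, as does the limit of 3 counts that a count of 0 allows. Depth was 13297643 to 21130757 counts per rat. The genes and lists were chosen with earlier results of these data known. Named were the 10 genes, every other heart muscle gene called in a treatment comparison, a set of *Myh7*, *Tnnc1*, *Actn2*, *Mybpc3*, *Pln*, *Casq2*, *Sln*, *Nppb*, *Mb*, and *Ckm* whatever their result, all further atrial and ventricular genes, the 3 genes of highest TPM of the other lists, and the 10 genes most like *Myl7* and *Myl2*. Some genes are not reported here and are not drawn. *Atp2a2*, *Tpm1*, *Tbx5*, *Cox6a2*, and *Tnni1* were named after their values were seen.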

Additional observations from a re-analysis of the deposited data

Results flagged for a closer look

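Of the 49 other heart muscle genes tested in the model of all rats, 1 had a treatment effect that differed between Years 0.5 and 2. The interaction test called 1.31% of all 14843 genes for these time points. With 1 call among 49 genes, nothing is read about heart muscle genes as a set. *Cox7a1*, a muscle subunit of cytochrome c oxidase, had a log2 fold change of -0.53 (standard error 0.18) at Year 0.5 and -1.54 (0.17) at Year 2, and the difference in the model of all 18 rats was -0.9995 (standard error 0.21, edgeR FDR 0.0287). At Year 0.5, control rats had 136, 145, and 122 counts and treated rats 85, 108, and 107. At Year 2, control rats had 181, 174, and 158 counts and treated rats 46, 61, and 70, and the groups did not overlap at either time point. The gene stood at 144% of the median in control rat 1 of Year 2 and at 109% in MWCNT-treated rat 1 of Year 1, the 2 rats nearly without *Myl7*. The call depended on single rats: it was made in 10 of the 18 fits that left out 1 rat and lost in 8, those without control rats 1 and 3 or MWCNT-treated rats 1 and 3 of Year 0.5 and those without control rats 1 and 2 or MWCNT-treated rats 1 and 2 of Year 2. The log2 difference ran from -1.14 to -0.902 and the edgeR FDR from 0.0205 to 0.0948 over these 18 fits. Without both rats nearly lacking *Myl7* it was -0.94 (edgeR FDR 0.0831), and DESeq2 called it (adjusted p = 0.00457).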

How the results depend on the processing

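The log2 fold change of the tested genes was negative in 290 of 292 alternative fits of treated against control rats. Over the Year 2 fits that lacked 1 rat, it ran from -1.67 to 0.35 for *Ryr2* and from -1.72 to 0.082 for *Tnnt2*, and both positive values were those without control rat 3. With each rat left out in turn, 4 to 8, 1 to 3, and 1 to 7 of the 10 genes and 6 to 28, 4 to 17, and 9 to 38 of the other heart muscle genes were called at Years 0.5, 1, and 2. At Year 0.5, limma on log2(TPM + 1) called 4 and 6, and one model of all 18 rats called 2 and 6. At Year 1, 1 of the 10 genes was called with at least 10 counts in every rat, by DESeq2, and in one model of all 18 rats, and the FDR alone called 20 other genes. At Year 2, 2 of the 10 genes were called with at least 10 counts in every rat, with library size only, without a filter, and in one model of all 18 rats, and limma on log2(TPM + 1) called 7 other genes. *Myl2* at Year 2, tested where the filter let it pass, was called without a filter, in one model of all 18 rats, and without control rat 1, and not called without any one of the MWCNT-treated rats. Scaling by library size only shifted the median of all genes by -0.10, -0.13, and -0.17. The median log2 ratio of atrial to ventricular genes was 4.85, 5.04, and 5.16 in the control rats of Years 0.5, 1, and 2 and 6.64 and 6.15 in the MWCNT-treated rats of Years 0.5 and 2 from counts in place of TPM, which are not scaled for length. With each rat left out, these medians on the TPM scale were 3.35 to 3.49, 3.55 to 3.73, and 3.62 to 3.78 in the control rats and 5.09 to 6.03, 5.40 to 7.63, and 5.08 to 5.40 in the MWCNT-treated rats. With the replicate block, 7 of the 10 genes and 25 other genes were called at Year 1, and no other count of treated against control rats moved by over 1.5 times. Of the time contrasts of the other genes, 1 call became 0 with the block in the control rats (Year 2 against 0.5) and 1 became 0 in the MWCNT-treated rats (Year 2 against 1). The numbers pair no animals, and deviations of rats with the same number correlated at 0.00685 on average (-0.147 to 0.107), against -0.00319 for other pairs. The cause of these shifts was not tested. Depth limits *Myl2* in treated rats, *Myl3*, and *Nppa* to a few counts per library. The fit without the 2 rats nearly lacking *Myl7* was added after the data were seen.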

Other observations

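Genes of skeletal muscle, which share filament parts with the heart, were read as well. Of 14 listed genes 12 were analysed, and 1, 3, and 2 of 5 tested were called higher at Years 0.5, 1, and 2 and 0 lower. *Acta1*, skeletal alpha-actin, rose by 1.68 ± 0.47, 2.74 ± 0.34, and 2.54 ± 0.45 on the log2 scale (estimate ± standard error), and *Mybpc2* had 0.99, 1.04, and 1.05, past the limit at Years 1 and 2. *Tnnt3*, the skeletal troponin T, had 0.09, -0.33, and -0.43 and was not called. *Casq1* had a median of 2.86 TPM in the control rats and 1.51 TPM in the treated rats. The share of all genes called higher was not set beside these counts, nor beside those of macrophage and adipocyte genes. Nothing is read from the counts of genes called higher. The summed level of the 12 genes was 14.5 to 23.4 TPM in the control rats and 19.7 to 31.1 TPM in the MWCNT-treated rats. *Acta1* and *Actc1* are close in sequence and had opposite signs at each time point.

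For Year 2 against Year 0.5, 1 of the 49 tested other heart muscle genes was called higher and 0 lower in the control rats. In the MWCNT-treated rats 1 was called higher and 2 lower. The shares of all genes called in either direction were 0.633% and 2.34%. *Tnni1* was the gene called higher in both treatments, by 2.34 (standard error 0.66, edgeR FDR 0.0447) in the control rats and 2.66 (standard error 0.66, FDR 0.0135) in the MWCNT-treated rats on the log2 scale. Its counts were 8, 7, and 4 at Year 0.5 and 54, 30, and 9 at Year 2 in the control rats, and 5, 9, and 4 at Year 0.5 and 37, 9, and 53 at Year 2 in the MWCNT-treated rats, so that the lowest rats of Year 2, with 9 counts each, were close to the highest of Year 0.5. In the control rats the call was lost in 14 of the 18 fits that left out 1 rat (edgeR FDR 0.012 to 0.211), with the lowest value, 1.63, without control rat 1 of Year 2, which had the 54 counts. It was also lost with the replicate block (FDR 0.0645) and without both rats nearly lacking *Myl7* (1.63, FDR 0.225). In the MWCNT-treated rats it was lost in 3 of the 18, those without MWCNT-treated rats 1 and 3 of Year 0.5 and rat 3 of Year 2 (edgeR FDR 0.0034 to 0.063).

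No mesothelial gene of the 4 listed passed the limit on the fold change, and *Msln* had 0.11, 0.52, and 0.71 on the log2 scale at Years 0.5, 1, and 2. Of the adipocyte genes, 1 of 3, 2 of 2, and 2 of 2 tested were called higher, and their summed level was 42.4 to 78.6 TPM in the control rats and 281 to 801 TPM in the MWCNT-treated rats. The called genes were *Fabp4* at all time points and *Cfd* at Years 1 and 2, and the other listed genes were not called: *Adipoq* had a median of 0.531 TPM in the control and 0.558 TPM in the treated rats, *Plin1* summed to 37 and 17 counts, and *Lep* to 48 and 15.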
